A study of Mus musculus with 8 samples.

Results

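The transforming growth factor beta (TGF-beta) ligands, the latent TGF-beta binding proteins, the co-receptor betaglycan and a pair of TGF-beta response genes were examined in RNA sequencing counts from mouse cells labelled adipocytes. The 10 genes are defined by name and family, with no threshold on their values: the ligands Tgfb1, Tgfb2 and Tgfb3, the binding proteins Ltbp1, Ltbp2, Ltbp3 and Ltbp4, the betaglycan gene Tgfbr3, and the response genes Tgfbi and Pmepa1. All 10 were among the 49671 genes in the count files and passed the filter on low counts, which left 14887 genes. The series holds 8 libraries of polyadenylated RNA, 4 labelled BMPR2 DELX, from mutant mice, and 4 labelled ROSA, which the study names as its control. BMPR2 is a type II receptor for bone morphogenetic proteins (BMPs), a branch of the same ligand superfamily. The labels give no strain, age, sex, allele structure, driver or treatment for either group, and do not say what DELX stands for. They also do not say whether the libraries come from separate animals or cultures, so the p-values cover only the spread of these 8 libraries, which may be technical.

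TGF-beta is made as a dimer that stays bound to its own propeptide, the latency-associated peptide, and is silent in that form. Binding proteins of the LTBP family are linked to the propeptide inside the cell and tether the latent complex to fibrillin and fibronectin in the matrix, from which integrins or proteases release the ligand. In stromal and fat tissue the pathway is known for driving matrix production and for restraining adipocyte differentiation. LTBP1 and LTBP3 carry the ligands, LTBP4 carries TGF-beta 1 weakly and also guides elastic fibre assembly, and LTBP2 is a matrix protein of the family that does not carry latent TGF-beta.

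Libraries held 28799445 to 43684785 counts assigned to genes, and levels are given as CPM, a gene's counts scaled to the same total in every library, after scaling by trimmed mean of M values (TMM), with the SD over 4 libraries. A positive log2 fold change means a higher level in BMPR2 DELX and is given ± its standard error (SE) from edgeR's quasi-likelihood test. Called genes had a p below 0.05 after Benjamini-Hochberg adjustment over all 14887 genes. Bmpr2 had 237, 208, 201 and 199 CPM in BMPR2 DELX 1 to 4 and 216, 207, 183 and 183 CPM in ROSA 1 to 4 (log2 fold change 0.10 ± 0.08 SE, edgeR adjusted p 0.471), and counts summed over a whole gene do not tell its exons apart. The labelled cell type was matched only in part by its markers, since 7 of 12 adipocyte genes, Adipoq, Plin1 and Lep among them, stayed under 1 CPM in every library. Of the others, Lpl, Fabp4, Pparg and Lipe had means of 217, 51.9, 22.5 and 5.49 CPM in BMPR2 DELX before scaling. In ROSA they had 136, 59.0, 15.6 and 3.99 CPM, and Cd36 reached at most 1.25 CPM in any library. Summed fibroblast markers lay at 11244 to 15509 CPM in BMPR2 DELX against 9436 to 11955 CPM in ROSA before scaling, and summed smooth muscle and pericyte markers at 9531 to 12227 and 10617 to 14069 CPM. Most of the fibroblast sum came from Col1a1 and Col1a2, with means of 6300 and 4731 CPM in BMPR2 DELX. Mean Thy1 went the other way (219 against 298 CPM in ROSA). Of 7 tested fibroblast markers, 1 was called, Col3a1, higher, beside 3.96% of all genes tested called higher. In such bulk samples, fewer cells of a type and less RNA per cell cannot be told apart.

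Of the 10 genes, Ltbp4 was higher, Ltbp1 was lower and the other 8 did not pass. Of all genes tested, 9.10% were called (3.96% higher and 5.15% lower), and 2 of 10 members is too few to set apart from that share. Both called genes encode latent TGF-beta binding proteins, and they moved in opposite directions. No ligand passed the edgeR test, with unadjusted p of 0.0761, 0.944 and 0.896 for Tgfb1, Tgfb2 and Tgfb3, and none was called by DESeq2 or limma voom. An unadjusted p below 0.05 was reached by 3 of 10, beside 26.3% of all genes tested. The groups did not overlap for the same 3 genes, Ltbp3 and Ltbp4 (higher) and Ltbp1 (lower), beside 18.0% of all genes tested (8.32% higher and 9.65% lower). The median log2 fold change was 0.04 over the members and 0.0045 over all tested genes. With upper-quartile factors in place of TMM, 734 genes were higher and 606 lower (54.8% higher, against 43.5% of the 1355 calls with TMM factors), and each of the 10 members kept the sign of its difference.

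RefSeq gives more than 1 start site for both called genes, and the sequence before each site is shown because a count per gene adds the forms together. The long and short forms of LTBP1 are known to come from separate promoters. RefSeq (GRCm38.p6) places Ltbp1 starts at 75005529 and 75178781 on the plus strand of chromosome 17, and Ltbp4 starts at 27337612 and 27333663 on the minus strand of chromosome 7. Sequences run 5′ to 3′ on the gene's strand, end where the first annotated exon or the RefSeq start begins, and show motif matches in capitals, where GTCTG is CAGAC read on the other strand.
Ltbp1 distal start, chr17:75005279-75005528, plus strand: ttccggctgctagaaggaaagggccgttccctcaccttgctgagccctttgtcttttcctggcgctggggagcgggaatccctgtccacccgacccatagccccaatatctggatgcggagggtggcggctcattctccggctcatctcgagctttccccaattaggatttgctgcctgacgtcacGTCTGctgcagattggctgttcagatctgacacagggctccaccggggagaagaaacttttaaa
Ltbp1 internal start, chr17:75178531-75178780, plus strand: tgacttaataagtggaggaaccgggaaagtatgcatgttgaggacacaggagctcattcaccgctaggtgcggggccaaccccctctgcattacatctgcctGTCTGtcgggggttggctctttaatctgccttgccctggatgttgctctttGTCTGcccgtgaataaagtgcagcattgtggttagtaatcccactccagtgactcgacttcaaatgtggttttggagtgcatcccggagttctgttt
Ltbp4 distal start, chr7:27337693-27337862, minus strand: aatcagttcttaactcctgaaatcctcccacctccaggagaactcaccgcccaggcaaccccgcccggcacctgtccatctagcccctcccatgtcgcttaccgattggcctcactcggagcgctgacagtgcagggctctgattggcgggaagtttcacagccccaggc
Ltbp4 internal start, chr7:27333664-27333913, minus strand: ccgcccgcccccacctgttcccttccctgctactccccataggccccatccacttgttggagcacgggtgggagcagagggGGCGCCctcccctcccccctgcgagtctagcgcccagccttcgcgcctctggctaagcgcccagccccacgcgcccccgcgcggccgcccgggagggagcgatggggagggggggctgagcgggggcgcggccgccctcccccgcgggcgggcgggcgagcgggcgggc
Searched on both strands were CAGAC, the SMAD box, GGCGCC, a GC-rich SMAD element, TGANTCA, the AP-1 element, and GGAATG, the TEAD element. CAGAC was found 1 time before the distal and 2 times before the internal Ltbp1 start, and 42.2% of all promoter windows of 250 bases hold it. GGCGCC was found 1 time before the internal Ltbp4 start, and 9.59% of such windows hold it. The other searches found no match in these windows, where TGANTCA and GGAATG are held by 6.75% and 12.6% of windows of 250 bases. In the window of 170 bases before the distal Ltbp4 start, none of the motifs was found, and windows of that length hold the SMAD box in 31.8%, the GC-rich SMAD element in 5.73%, the AP-1 element in 4.68% and the TEAD element in 9.12% of cases. GC content was 56.8% and 50.8% before the distal and internal Ltbp1 starts and 60.6% and 79.2% before those of Ltbp4.

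Among the ligands, Tgfb3 was the most abundant per exon length and did not differ between the groups beyond the spread of the libraries. Tgfb1 (ENSMUSG00000002603, GRCm38 chromosome 7, 25687002 to 25705077) encodes the ligand best known for driving fibrosis. It had 182, 158, 149 and 157 CPM in BMPR2 DELX 1 to 4 and 147, 157, 143 and 137 CPM in ROSA 1 to 4, so the groups overlapped and BMPR2 DELX 1 stood highest. Means were 162 ± 14.0 and 146 ± 8.13 CPM (log2 fold change 0.15 ± 0.07, edgeR adjusted p 0.239). Tgfb2 (ENSMUSG00000039239, chromosome 1, 186622792 to 186705989), the isoform that relies on betaglycan to reach its receptors, had 159, 132, 164 and 134 CPM in BMPR2 DELX against 170.01, 154, 92.7 and 166 CPM in ROSA. ROSA 3 was low for Tgfb2, and the other 7 libraries lay between 132 and 170.01 CPM. The Tgfb2 difference was 0.01 ± 0.18 (edgeR adjusted p 0.971).

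Tgfb3 (ENSMUSG00000021253, chromosome 12, 86056745 to 86079041), an isoform known for roles in palate fusion and scarring, had 274, 291, 394 and 439 CPM in BMPR2 DELX 1 to 4. In ROSA 1 to 4 it had 337, 265, 296 and 474 CPM, the lowest and the highest of the 8 libraries being ROSA 2 and ROSA 4. Its log2 fold change was 0.03 ± 0.21 (edgeR adjusted p 0.949). Per kilobase of exon, Tgfb3 made up 63.7 ± 6.31% of the summed ligand transcripts in BMPR2 DELX and 64.6 ± 5.84% in ROSA (SD, n = 4). Tgfb1 made up 20.3 ± 4.01% and 19.2 ± 3.97%, and Tgfb2 made up 16.0 ± 2.64% and 16.2 ± 3.47%. The ligand make-up thus varied more between libraries of 1 group than between the group means.

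**Figure D1:**
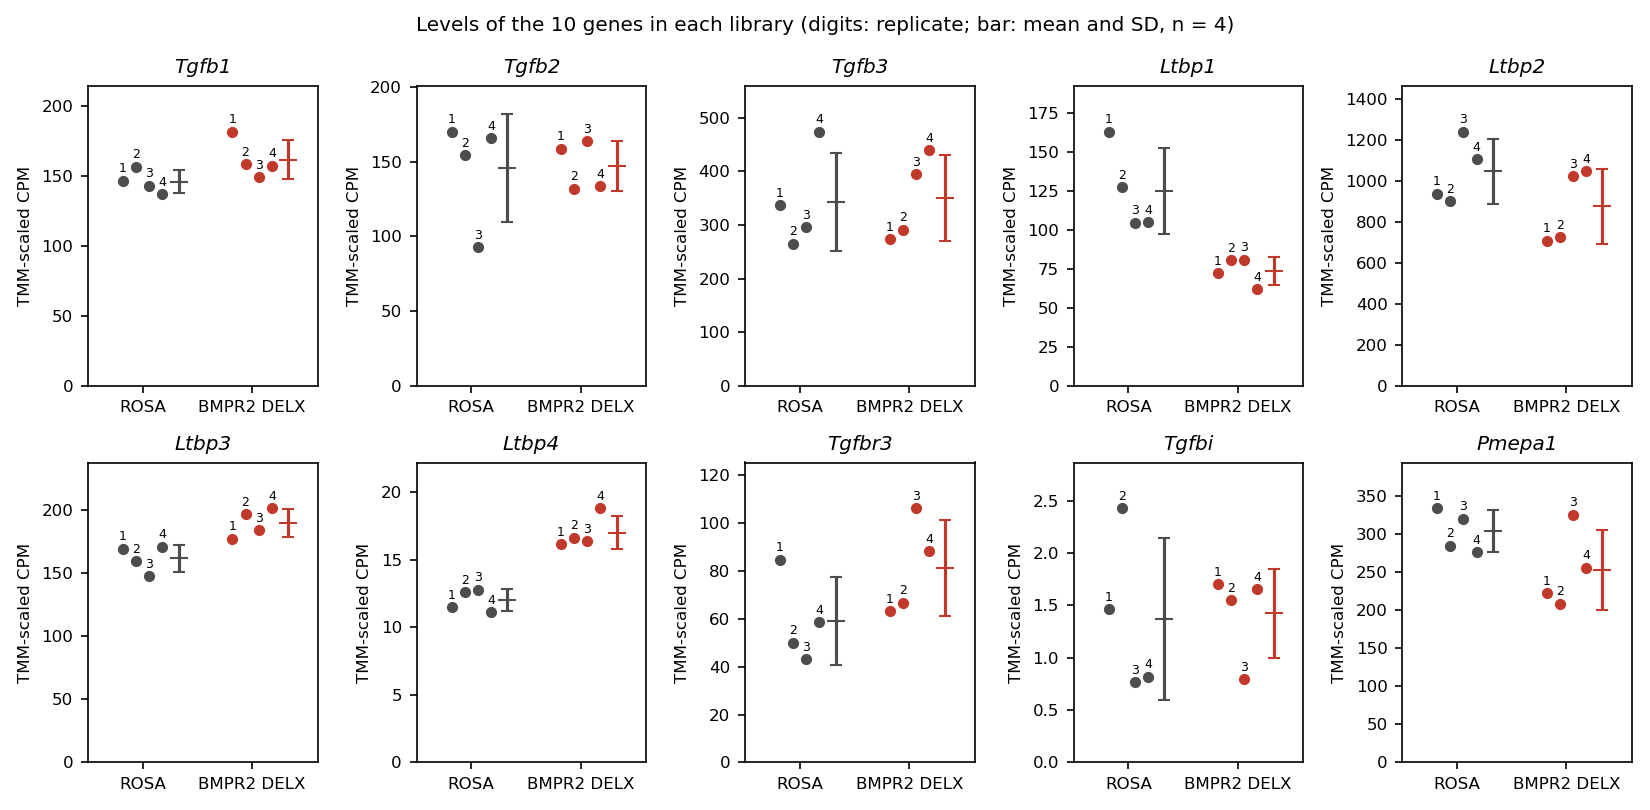
TMM-scaled CPM (linear axis from 0) of the 10 genes in each library, with ROSA in grey, BMPR2 DELX in red, replicate numbers above the points, and the mean with its SD beside each group of 4. Ltbp1 lies at 62.1 to 81.1 CPM in BMPR2 DELX against 105 to 163 CPM in ROSA, Ltbp4 at 16.1 to 18.8 and 11.1 to 12.8 CPM, and the ligands overlap between the groups.

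Ltbp1 fell to 0.592 of its ROSA level in BMPR2 DELX. The gene (ENSMUSG00000001870, chromosome 17, 75005568 to 75392512, plus strand) encodes the carrier that fixes latent TGF-beta to the matrix. It had 72.4, 80.8, 81.1 and 62.1 CPM in BMPR2 DELX 1 to 4 and 163, 127, 105 and 105 CPM in ROSA 1 to 4. Every BMPR2 DELX library was below every ROSA library, and the ROSA libraries were uneven, with ROSA 1 far above ROSA 3 and ROSA 4. Means were 74.1 ± 8.98 and 125 ± 27.4 CPM (log2 fold change -0.76 ± 0.15, edgeR adjusted p 0.0185, n = 4 per group). In ROSA 1, 21.95% of reads were assigned to no gene, against 14.7% to 17.3% in the other 7 libraries. Of 7 tested smooth muscle and pericyte markers, 2 were called, both lower in BMPR2 DELX, beside 5.15% of all genes tested called lower. They were Mcam (75.4 ± 15.1 against 129 ± 21.4 CPM) and Cspg4 (56.5 ± 18.2 against 116 ± 23.6 CPM), named after their values were seen. The other tested markers did not pass, Acta2, Tagln and Cnn1 among them (edgeR adjusted p 0.288, 0.225 and 0.44). The part of these markers in the Ltbp1 result was not tested. Without ROSA 1 the difference was -0.59 (edgeR adjusted p 0.0272), without ROSA 2 it was -0.74 and no longer passed (adjusted p 0.0583), and without both it was -0.49 (adjusted p 0.0913), against a range of 7.2e-05 to 0.0913 over 17 alternatives.

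Ltbp4 rose 1.42-fold in BMPR2 DELX. The gene (ENSMUSG00000040488, chromosome 7, 27305136 to 27337692, minus strand) encodes the member that binds TGF-beta 1 weakly and takes part in elastic fibre assembly. Its levels were low and even, at 16.1, 16.6, 16.4 and 18.8 CPM in BMPR2 DELX 1 to 4 and 11.5, 12.6, 12.8 and 11.1 CPM in ROSA 1 to 4. The groups did not overlap, with each BMPR2 DELX library above each ROSA library. Means were 17.0 ± 1.22 and 12.0 ± 0.81 CPM (log2 fold change 0.50 ± 0.09, edgeR adjusted p 0.0101), from raw counts of 369 to 841 per library. The call held without each library in turn, and without ROSA 1 and ROSA 2 together the difference was 0.52 with an adjusted p of 0.0727, against a range of 2.8e-05 to 0.0727 over 17 alternatives.

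Ltbp3 (ENSMUSG00000024940, chromosome 19, 5740904 to 5758532), a carrier known from tooth and bone development, had 177, 196, 184 and 201 CPM in BMPR2 DELX against 169, 160, 148 and 171 CPM in ROSA. The groups did not overlap, but the gap between BMPR2 DELX 1 and ROSA 4 was small and the test missed the threshold (log2 fold change 0.23 ± 0.07, edgeR adjusted p 0.0665). It passed with DESeq2 (adjusted p 0.0323) and with upper-quartile factors (adjusted p 0.0376), within a range of 0.0323 to 0.215 over 17 alternatives. Ltbp2 (ENSMUSG00000002020, chromosome 12, 84783212 to 84876532), the matrix member of the family, had the most counts of the 10 genes, at 710, 727, 1024 and 1050 CPM in BMPR2 DELX 1 to 4. ROSA 1 to 4 had 939, 903, 1242 and 1108 CPM of Ltbp2, and the groups overlapped (log2 fold change -0.26 ± 0.16, edgeR adjusted p 0.331).

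The make-up of the LTBP transcripts was compared within each library. Among Ltbp1, Ltbp3 and Ltbp4 transcripts per kilobase of exon, Ltbp1 made up 18.8% to 24.95% in BMPR2 DELX and 32.4% to 42.8% in ROSA. Ltbp3 made up 66.7% to 71.8% and 52.3% to 61.9%, and Ltbp4 made up 8.09% to 9.41% and 4.97% to 7.04%. None of the 3 shares overlapped between the groups, which restates the levels above on a scale that does not depend on the library scaling, and no test was made of these shares. With Ltbp2 counted in, Ltbp1 made up 3.65% to 6.27% in BMPR2 DELX and 5.46% to 10.1% in ROSA and overlapped. Of that total, Ltbp2 made up 73.7% to 80.6% and 76.3% to 84.4% and overlapped too, while Ltbp3 (13.0% to 17.9% and 9.05% to 12.4%) and Ltbp4 (1.63% to 2.16% and 1.04% to 1.37%) did not. The ratio of Ltbp1 to Ltbp4 per kilobase was 2.71, 2.94, 2.99 and 2.00 in BMPR2 DELX 1 to 4 and 8.60, 6.13, 4.97 and 5.72 in ROSA 1 to 4. Each BMPR2 DELX library was thus below each ROSA library in this ratio, with means of 2.66 ± 0.46 and 6.35 ± 1.57 (SD, n = 4).

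**Figure D2:**
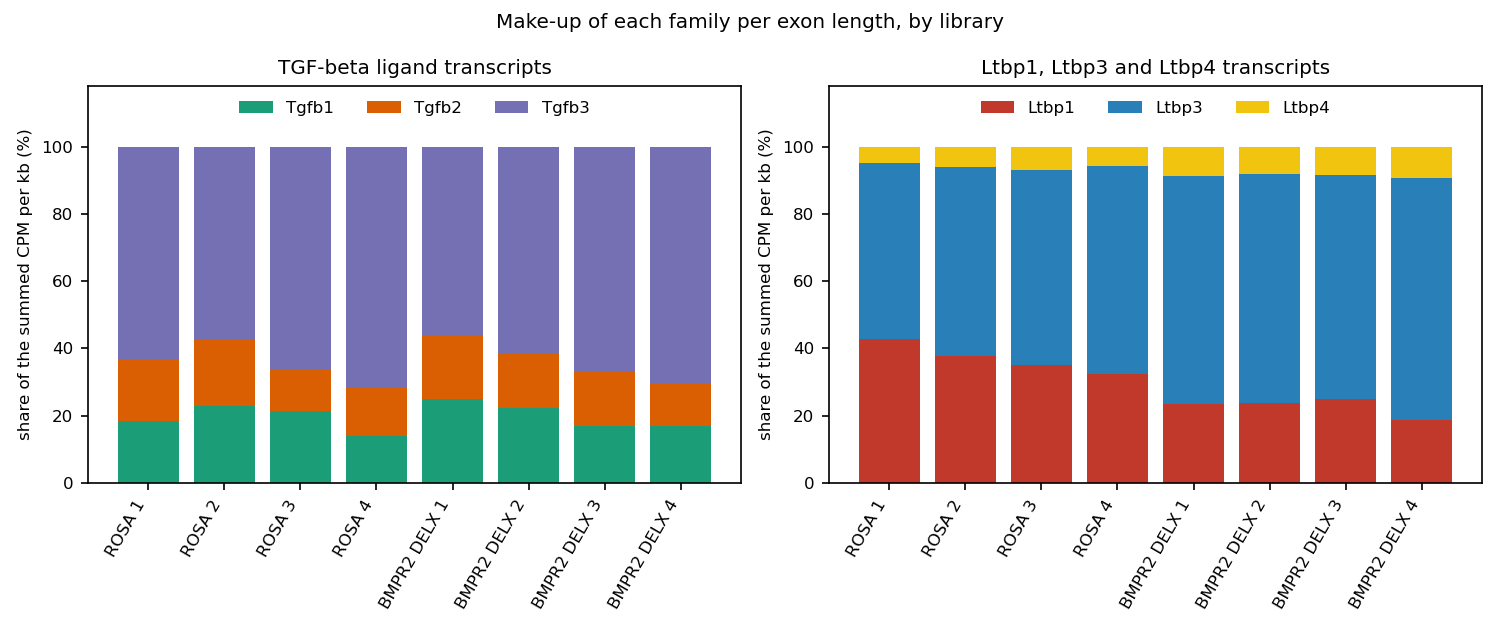
Stacked bars give, for each library, the share in percent of the summed CPM per kilobase of exon, for the 3 ligands on the left and for Ltbp1, Ltbp3 and Ltbp4 on the right. Tgfb3 is the largest ligand share in each library, and the Ltbp1 share is 18.8% to 24.95% in BMPR2 DELX against 32.4% to 42.8% in ROSA.

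Tgfbr3 (ENSMUSG00000029287, chromosome 5, 107106570 to 107289629) encodes betaglycan, a membrane proteoglycan that presents TGF-beta to its signalling receptors and also binds inhibin. It had 63.1, 66.8, 106 and 88.3 CPM in BMPR2 DELX 1 to 4 and 84.7, 50.01, 43.1 and 58.5 CPM in ROSA 1 to 4. ROSA 1 lay among the BMPR2 DELX libraries, the other ROSA libraries lay below all of them, and the test did not pass (log2 fold change 0.46 ± 0.24, edgeR adjusted p 0.263). Without ROSA 1 the value was 0.70, with an adjusted p of 0.086. The annotation places 297 exon bases of a second gene model on the same strand within Tgfbr3, and reads there could be counted to neither gene.

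The response genes did not pass either. Pmepa1 (ENSMUSG00000038400, chromosome 2, 173224458 to 173276533) is induced by TGF-beta and encodes a membrane protein that holds back SMAD2 and SMAD3. It had 222, 208, 325 and 255 CPM in BMPR2 DELX 1 to 4 and 334, 285, 320 and 276 CPM in ROSA 1 to 4. BMPR2 DELX 3 lay within the ROSA range and the other 3 BMPR2 DELX libraries lay below it (log2 fold change -0.26 ± 0.13, edgeR adjusted p 0.241). Without BMPR2 DELX 3 the difference was -0.41 and passed, at an adjusted p of 0.0435, the lowest of a range up to 0.587 over 17 alternatives. Tgfbi (ENSMUSG00000035493, chromosome 13, 56609523 to 56639562), named for its induction by TGF-beta and encoding a secreted adhesion protein, had the lowest level of the 10 genes per exon length. It had 1.70, 1.55, 0.793 and 1.65 CPM in BMPR2 DELX against 1.46, 2.43, 0.765 and 0.817 CPM in ROSA, or 23 to 100 reads per library, with a difference of 0.05 ± 0.39 (edgeR adjusted p 0.956).

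Per kilobase of exon, which allows levels of different genes to be compared, the order in ROSA was Ltbp2 (128 CPM per kb), Tgfb3 (101.35), Pmepa1 (61.8), Tgfb1 (28.9), Tgfb2 (25.2), Ltbp3 (17.8), Ltbp1 (11.7), Tgfbr3 (9.02), Ltbp4 (1.85) and Tgfbi (0.363). Neighbours in this order whose ROSA libraries overlapped were Ltbp2 and Tgfb3, Tgfb1 and Tgfb2, Tgfb2 and Ltbp3, and Ltbp1 and Tgfbr3. In BMPR2 DELX the levels were 107, 103, 51.5, 32.1, 25.4, 20.9, 6.93, 12.4, 2.63 and 0.378 CPM per kb in the same gene order, so that Tgfbr3 stood above Ltbp1. The exon length counts all annotated transcripts, retained introns included, so the level per kilobase is understated for genes with many of them.

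Several members split the BMPR2 DELX libraries in the same way. Tgfb3, Ltbp2, Tgfbr3 and Pmepa1 were each lower in BMPR2 DELX 1 and BMPR2 DELX 2 than in BMPR2 DELX 3 and BMPR2 DELX 4. These genes were singled out after their values were seen. Tgfb1 split the libraries in the opposite direction, and the remaining members did neither. Summed endothelial markers before scaling were higher in BMPR2 DELX 1 and BMPR2 DELX 2, at 1412, 1399, 302 and 678 CPM in BMPR2 DELX 1 to 4. They stood at 976, 1253, 556 and 905 CPM in ROSA 1 to 4. The 8 endothelial genes thus overlapped between the groups, with 0 of the 7 tested called by edgeR. In ROSA 3, the endothelial sum and Tgfbr3 (43.1 CPM) were each the lowest of the ROSA libraries. Summed smooth muscle and pericyte markers before scaling split like Tgfb3, at 9531, 9574, 12227 and 11492 CPM in BMPR2 DELX 1 to 4. Summed fibroblast markers did too, at 11244, 13019, 15509 and 13193 CPM. The part of any of these markers in the spread of the members was not tested. Summed macrophage markers did not overlap, at 39.7 to 70.7 CPM in BMPR2 DELX against 23.0 to 36.6 CPM in ROSA. Most of this sum came from Csf1r (means before scaling 29.9 against 21.3 CPM) and Lyz2 (11.85 against 3.96 CPM). Mean Ptprc went the other way (0.256 against 0.362 CPM). Of the 10 macrophage genes, 6 stayed under 1 CPM in every library, Ptprc and Adgre1 among them, and 1 was called, Cd68 (6.46 ± 0.45 against 3.92 ± 0.81 CPM). Summed adipocyte markers, of which most came from Lpl, higher by 0.58 ± 0.13 (edgeR adjusted p 0.0241), did not overlap either, at 272 to 323 and 188 to 236 CPM. Lpl was the only one called of the 5 adipocyte genes tested. The next most abundant, Fabp4, went the other way, its mean before scaling being lower in the mutant group (51.9 against 59.0 CPM). Means of Pparg, Lipe and Cd36 were higher in that group. Summed epithelial markers overlapped, at 23.4 to 55.85 CPM in BMPR2 DELX against 29.6 to 45.1 CPM in ROSA. Of 6 tested epithelial genes, 1 was called, higher, beside 3.96% of all genes tested called higher. Means of Krt7, Krt8, Krt18, Pax8 and Cdh16 were higher in BMPR2 DELX, and those of Krt19, Epcam and Cdh1 were lower. The part of these markers in the Ltbp1 and Ltbp4 differences was not tested.

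The genes whose levels most resembled each called member over the 8 libraries were found among 8791 genes with a mean of at least 10 CPM. For Ltbp4 they were Fdxr, the mitochondrial ferredoxin reductase (Pearson r 0.971, Spearman rho 0.905), the mitochondrial transporter Abcb8 (r 0.970, rho 0.81) and the quinone reductase Cryz (r 0.968, rho 0.905). For Ltbp1 they were Klf5, a Krüppel-like factor (r 0.993, rho 0.952), the deubiquitinase Usp32 (r 0.989, rho 0.952) and the serine synthesis enzyme Phgdh (r 0.986, rho 0.976). These values describe likeness only, carry no test because the genes were picked for it, and include the difference between the groups as well as the spread within them. Klf5 had 21.3 CPM in ROSA and 10.7 CPM in BMPR2 DELX, and Fdxr had 8.45 and 14.4 CPM.

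**Figure D3:**
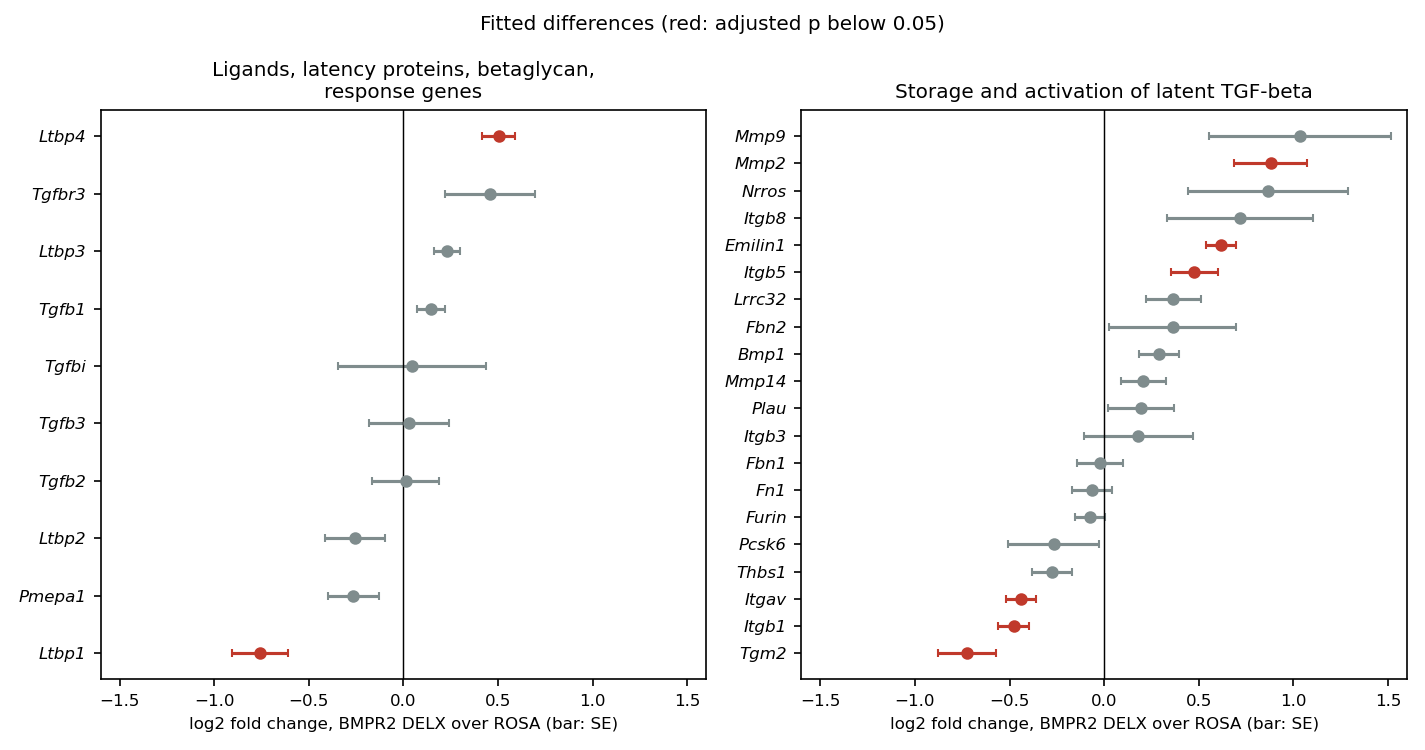
Each point is a gene's log2 fold change (BMPR2 DELX over ROSA) and each bar its SE, for the 10 genes on the left and for 20 tested genes of storage and activation of latent TGF-beta on the right, in red where the edgeR adjusted p was below 0.05. Ltbp4 and Ltbp1 are the only red points on the left, and 3 genes on each side of 0 are red on the right.

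Among 20 tested genes that store and release latent TGF-beta, 3 rose, 3 fell and 14 missed the threshold, which is 30.0% called beside 9.10% of all genes tested (3.96% higher and 5.15% lower). An unadjusted p below 0.05 was reached by 9 of the 20, beside 26.3% of all genes. Its median log2 fold change was 0.20, beside 0.0045 over all tested genes. Emilin1, a matrix protein that holds back processing of the TGF-beta precursor, rose by 0.62 ± 0.08 (edgeR adjusted p 0.0033), with 139 to 162 CPM in BMPR2 DELX against 88.4 to 107 CPM in ROSA. The integrin genes Itgb1 and Itgav, which encode chains of receptors that pull on the latent complex, fell by 0.48 (SE 0.08) and 0.44 (SE 0.08), with adjusted p of 0.0101 and 0.012. Itgb1 had 1647 to 2076 CPM in BMPR2 DELX against 2611 to 2756 CPM in ROSA, and Itgav had 316 to 372 and 421 to 506 CPM. Tgm2, the transglutaminase that crosslinks latent complexes into the matrix, had 1415 ± 279 CPM in ROSA and fell to 856 ± 137 CPM in BMPR2 DELX (-0.73 ± 0.15, edgeR adjusted p 0.023). Tgm2 lost the call without BMPR2 DELX 1, BMPR2 DELX 2 or ROSA 1. The call was also lost with no count filter (edgeR adjusted p 0.0561) and without ROSA 1 and ROSA 2 together (adjusted p 0.132). The other 2 called genes, named after their values were seen, were the gelatinase Mmp2 (0.88 ± 0.19) and the integrin chain Itgb5 (0.48 ± 0.13), both higher. Without BMPR2 DELX 2 the list had 1 higher and 2 lower genes, and without ROSA 1 and ROSA 2 it had 1 called gene.

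Of 6 TGF-beta receptors and co-receptors, edgeR called 0, beside 9.10% of all genes tested, while 2 passed with DESeq2 and 1 with limma voom. An unadjusted p below 0.05 was reached by 3 of the 6, beside 26.3% of all genes. The type II receptor Tgfbr2 had 203 ± 14.6 CPM in BMPR2 DELX against 171 ± 9.56 CPM in ROSA (log2 fold change 0.25 ± 0.07, edgeR adjusted p 0.0549), and the type I receptor Tgfbr1 had 134 ± 35.7 and 95.4 ± 5.34 CPM (0.49 ± 0.17, adjusted p 0.105). The co-receptor Cd109 (-0.40 ± 0.15) and the pseudoreceptor Bambi (-0.11 ± 0.10) did not pass. Tgfbr2 passed without BMPR2 DELX 1 (edgeR adjusted p 0.0283) and under 6 other settings. These were upper-quartile factors, DESeq2 (adjusted p 0.0211), voom, no count filter, a filter of 1 CPM in 4 libraries and the unstranded column (edgeR adjusted p 0.0497). Tgfbr1 passed without BMPR2 DELX 2 (edgeR adjusted p 0.0325) and with DESeq2 (adjusted p 0.0349). Both genes kept their direction over the 17 alternatives. Of 5 proteoglycans and other secreted or shed proteins that bind TGF-beta, 0 were called by edgeR, DESeq2 or limma voom, beside 9.10% of all genes called by edgeR. An unadjusted p below 0.05 was reached by 0 of the 5, beside 26.3% of all genes, and 5 genes are too few to set apart from these shares. Log2 fold changes of the 4 with the smallest p were 0.59 ± 0.54 for decorin (Dcn), -0.17 ± 0.12 for biglycan (Bgn), 0.32 ± 0.61 for asporin (Aspn) and -0.35 ± 0.19 for vasorin (Vasn). Fmod stood at -0.007 ± 0.33.

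Of 25 genes that respond to SMAD2 and SMAD3, 2 rose, 2 fell and 21 missed the threshold, which is 16.0% called beside 9.10% of all genes tested. An unadjusted p below 0.05 was reached by 12 of the 25, beside 26.3% of all genes, and the median log2 fold change was -0.21, beside 0.0045 over all tested genes. Col1a1, Col1a2 and Col3a1 are also among the fibroblast markers above, and Acta2, Tagln and Cnn1 among the smooth muscle and pericyte markers. Thbs1 and Fn1 are also among the storage and activation genes, so the same values enter more than 1 list. The fibrillar collagen Col3a1 rose from 482 ± 49.2 to 1146 ± 185 CPM (1.25 ± 0.12, edgeR adjusted p 0.0013) and the transcription factor Snai1 from 56.8 ± 9.93 to 80.3 ± 1.78 CPM (0.50 ± 0.11, adjusted p 0.0228). The inhibitory Smad7 fell by 0.45 (SE 0.11, adjusted p 0.0349) and the repressor Tgif1 by 0.71 (SE 0.18, adjusted p 0.0427). The control libraries were uneven for both genes: Smad7 had 195, 200.1, 150.3 and 147 CPM and Tgif1 had 86.4, 102, 57.1 and 57.7 CPM in ROSA 1 to 4. Without ROSA 1 and ROSA 2 their differences were -0.21 and -0.30, at adjusted p of 0.25 and 0.112, and 2 genes of the list were called, both higher. Smad7 and Tgif1 each lost the call in 6 of 8 fits without 1 library (each library except ROSA 3 and ROSA 4), and Snai1 in 2 (BMPR2 DELX 2 and ROSA 1). Tgif1 also lost its call with no count filter (edgeR adjusted p 0.148).

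**Figure D4:**
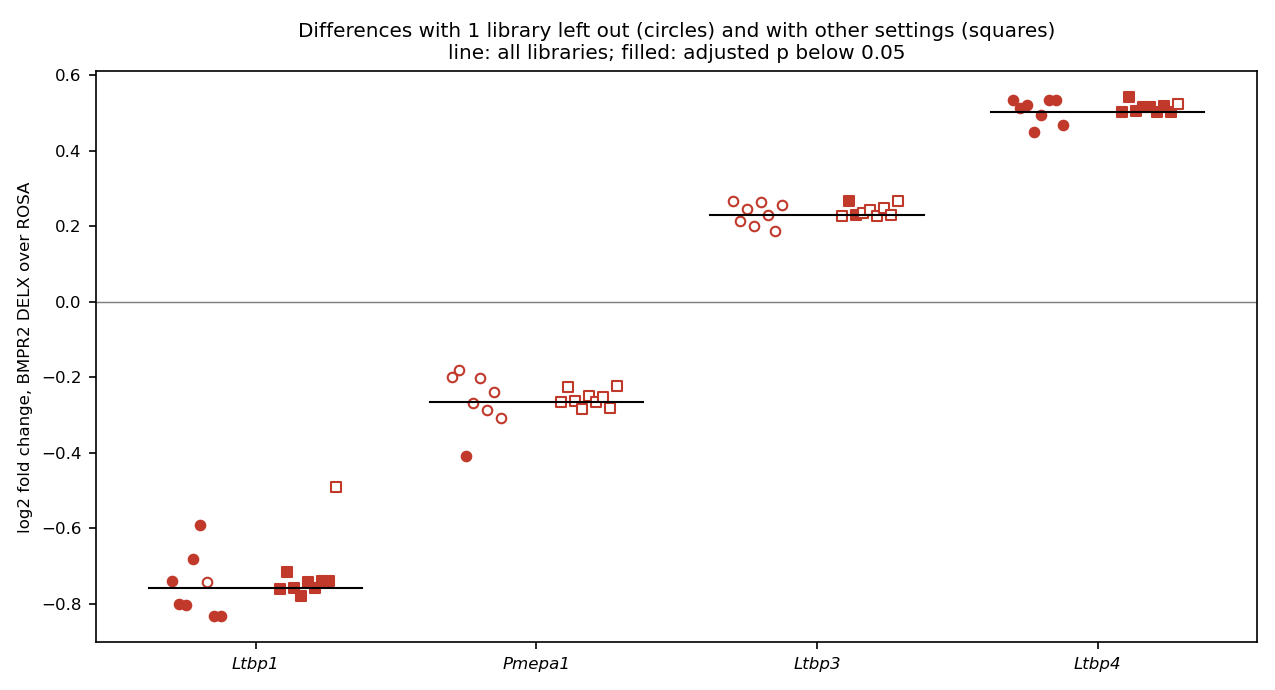
Log2 fold changes of Ltbp1, Pmepa1, Ltbp3 and Ltbp4 with 1 library left out (circles, 8 per gene) and under 9 other settings (squares), filled where the adjusted p was below 0.05, with a line at the value from all libraries. Ltbp1 runs from -0.83 to -0.59 without 1 library and stands at -0.49 without ROSA 1 and ROSA 2, while Ltbp4 runs from 0.45 to 0.54 without 1 library.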

How the data were processed

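Polyadenylated RNA was sequenced in 8 mouse libraries, 4 labelled BMPR2 DELX and 4 labelled ROSA. The authors deposited raw read counts per Ensembl gene, 1 file per library, in 3 columns that ignore strand, take the gene's strand or take the other strand. The submitters' processing notes name STAR 2.5.2b, HTSeq and the build GRCm38 without saying what each did, and the annotation release is not given in the sources used here. The column for the other strand, with 93.4% of strand-assigned counts, was used, and 4 lines that name no gene (14.7% to 22.0% of reads) were dropped. GENCODE M21 (GRCm38) gave symbols, positions and exon lengths for 49412 of 49671 IDs. Genes passing filterByExpr were scaled by TMM factors and tested with the edgeR 4.0.16 quasi-likelihood test (robust, R 4.3.3) with Benjamini-Hochberg adjustment. The standard error is the log2 fold change divided by the square root of F. A count of 0 would allow up to 3 counts, or 0.0687 to 0.104 CPM, a limit for counting error only.

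The members, pathway lists and the pair ROSA 1 and ROSA 2 were chosen with earlier results of these data known, although the rule for the members names genes and uses no value. Named were the 10 members, Bmpr2, up to 4 genes per pathway list by smallest p, and 3 genes most alike to each called member by Pearson r of log2 CPM (prior count 2). Alternatives were other scaling factors (upper quartile, relative log expression), DESeq2 1.42.0, voom with quality weights from limma 3.58.1, no count filter, a filter of 1 CPM in 4 libraries, the unstranded column, a block on the replicate number, and leaving out 1 library or ROSA 1 and ROSA 2. The fit was tested on simulated data. Promoters were taken from the RefSeq table of GRCm38.p6, which matched 7 of the 10 members. Figures were drawn with matplotlib 3.10.9.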

Additional observations from a re-analysis of the deposited data

Results flagged for a closer look

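In each group of 4 libraries, the gap of the highest or lowest library to its neighbour was set against the whole range of the group, for 52 groups of the members and named pathway genes. Tgfbi in BMPR2 DELX 3, at 0.793 CPM, lay below the other BMPR2 DELX libraries, which had 1.55 to 1.70 CPM. Tgfbr2 in BMPR2 DELX 1, at 181 CPM, lay below the other BMPR2 DELX libraries, which had 209 to 213 CPM. Chance alone sets about 1 in 20 groups apart in this way, and 2 of 52 were found.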

How the results depend on the processing

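Over all genes, 477 (without ROSA 2) to 1266 (without ROSA 4) were called without 1 library, 2268 with DESeq2 (1082 higher, 1186 lower) and 172 without ROSA 1 and ROSA 2, and 470 of the 477 and 160 of the 172 were among the 1355 calls of the full set. Counts also fell by over 1.5 times without BMPR2 DELX 2 (659), BMPR2 DELX 3 (870) and ROSA 1 (631). Members called numbered 1 to 3 without 1 library (1 without ROSA 2) and 0 without ROSA 1 and ROSA 2, where ROSA has 2 libraries left. Ltbp1 ran from -0.83 to -0.59 without 1 library and was -0.49 without ROSA 1 and ROSA 2, and Ltbp4 ran from 0.45 to 0.54 and was 0.52. Receptors called were 0 to 1 without 1 library, 2 with DESeq2, and 1 each with upper-quartile factors, voom, no count filter, the 1 CPM filter, the unstranded column and the replicate block. Under these last settings the called receptor was Tgfbr2, higher, except with the replicate block, where it was Cd109, lower. Storage and activation genes called were 3 to 5 without 1 library and 1 without ROSA 1 and ROSA 2. SMAD2 and SMAD3 response genes called were 1 to 5 without 1 library, 7 with DESeq2 and 2 without ROSA 1 and ROSA 2, and 0 of the TGF-beta binding proteoglycans were called without any 1 library. Signs turned in genes that were never called: Tgfb2 (-0.15 to 0.11 without 1 library, -0.0038 with voom), Tgfb3 (-0.10 to 0.22, and -0.12 without ROSA 1 and ROSA 2), Tgfbi (-0.15 to 0.50), Aspn (-0.041 to 0.81) and Vasn (0.0077 without ROSA 1 and ROSA 2). The cause of these changes was not tested.

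With the replicate number as a block, 1245 genes and 2 members were called, Ltbp1 at -0.74 and Ltbp4 at 0.50, while Smad7 lost its call (adjusted p 0.0702) and Cd109 gained one (adjusted p 0.0358). The labels give the numbers no meaning and the numbers were not taken to pair the samples, since same-numbered libraries correlated at 0.005 to 0.245 in their deviations from the group means, not all above 0.1. In the data, 5 of 8 libraries correlated best with their own number, so shared handling by number was not settled. The median of all genes moved by at most 0.04 between scalings. TMM factors did not overlap between the groups, at 1.001 to 1.062 in BMPR2 DELX and 0.918 to 0.993 in ROSA. Group means given before scaling thus stand higher in BMPR2 DELX, and lower in ROSA, than after it. Of the members, depth limits Tgfbi most, with 23 to 100 reads per library.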

Other observations

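Lrrc32, which encodes a membrane anchor for latent TGF-beta known from regulatory T cells and platelets, was abundant in these libraries and was singled out after its values were seen. It had 1166 to 1768 CPM in BMPR2 DELX against 1025 to 1354 CPM in ROSA, against 0.734 to 3.37 and 0.963 to 1.72 CPM of Nrros, the related anchor of myeloid cells. The Lrrc32 groups overlapped (log2 fold change 0.37 ± 0.15, edgeR adjusted p 0.145).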
